A study of Mus musculus with 9 samples.

Results

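Vim and 9 genes for actin regulators of leukocytes were followed through red cell maturation in the mouse fetal liver and through a short culture of early progenitors with 2 agents. The 10 genes were Vim, Coro1a, Fmnl1, Lcp1, Was, Arpc1b, Evl, Rac2, Gmfg and Cnn2, out of 19840 gene names in the RNA-seq files. They were picked by name with their levels in these libraries already known. Their levels, and above all their difference between the 2 kinds of progenitor, are therefore given as a description and not as a test. All 10 names were found.

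There were 9 libraries, each the only library of its condition, from C57BL/6 embryos at embryonic day 13.5 to 14.5. The 3 fresh populations were BFU-E, CFU-E and Ter119+ erythroblasts; BFU-E are early red cell progenitors that form large late colonies in culture, and CFU-E are their successors, which form small early ones. Both progenitor gates took kit+ cells that lacked CD34, CD41, Ter119 and surface markers of B cells (B220), T cells (CD3) and myeloid cells (Mac-1, Gr-1, CD16/32). Within that gate BFU-E were the 10% lowest and CFU-E the 20% highest for CD71, the transferrin receptor; erythroblasts were Ter119+ and kit-. The 6 cultured libraries came from BFU-E. In the CD71/CD24a sort, cells low for CD71 and CD24a were divided between dexamethasone (Dex, a synthetic glucocorticoid, 100 nM) with dimethyloxalylglycine (DMOG, an inhibitor of HIF prolyl hydroxylases, 333 µM), Dex alone, DMOG alone, and water. In the CD71 sort, cells low for CD71 alone were divided between Dex and water. All cultured cells had 4 h in serum-free medium with stem cell factor, IGF-1 and erythropoietin, and then 4 h with the agent or water.

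Levels are RPKM, which count reads relative to transcript length and to the size of the library, scaled so that the median gene agrees between libraries, and are called normalised RPKM. A log2 difference is taken after adding 1 to each normalised RPKM, a scale on which changes of low genes look smaller than they are. A ratio is of normalised RPKM, with an exact 95% interval that covers counting error only. Read depth, recovered from the steps between low values, was 11.9 to 52.7 M reads a library. Of the genes for gated surface proteins, Kit stood at 175 in BFU-E, 83.0 in CFU-E and 2.45 normalised RPKM in Ter119+ cells, and Tfrc, which encodes CD71, at 18.9, 104 and 1040. Cd34 and Itga2b, which encodes CD41, were present in BFU-E RNA although both gates excluded the proteins: Cd34 stood at 12.8, 0.204 and 0.994 and Itga2b at 44.0, 2.12 and 12.2 in BFU-E, CFU-E and Ter119+ cells. The 4 files of the CD71/CD24a sort marked undetected genes with a 1 in place of a 0, so sort and file processing cannot be told apart.

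Vimentin forms the intermediate filaments of mesenchymal and many blood cells. Actin filaments are built in a branched form by the Arp2/3 complex, which WASP activates downstream of Rac and Cdc42, and in an unbranched form by formins and Ena/VASP proteins. Plastins bundle the filaments, coronins and glia maturation factors help to take branches apart, and calponins bind along them. Blood cells use their own members of these families for crawling, engulfing and contact with other cells, whereas the red cell ends its maturation with a skeleton of spectrin and short actin filaments under its membrane.

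Nearly the whole set was lower in CFU-E than in BFU-E. By a rule of at least 2-fold, applied to genes at 1 or more normalised RPKM in either library, 9 of the 10 members were lower in CFU-E and 0 were higher. Of all 9947 genes compared, 12.3% were lower and 3.32% higher. The median log2 difference of the 10 members was -3.29, against -0.08 for all genes. The members were chosen with this contrast known, so nothing is read from these counts. Fewer cells of a type and less RNA per cell cannot be told apart in sorted bulk samples. Markers of other cells and of early progenitors were lower in CFU-E as well. The sum of 9 pan-leukocyte markers was 9.66 normalised RPKM in CFU-E and 222 in BFU-E, with Laptm5 at 4.77 and 138. That of 17 neutrophil and mast cell markers was 5.16 and 101, with Mpo at 2.09 and 71.5, and that of 9 megakaryocyte markers 37.3 and 180. The sum of 9 early progenitor markers was 152 and 532. It includes Myb, at 65.7 and 220, and Kit, at 83.0 and 175, whose protein both gates selected, so it does not stand for other cells. Their part in the levels of the members was not tested.

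Vim (record NM_011701) had the highest BFU-E level of the 10. It stood at 355 in BFU-E, 1.47 in CFU-E and 6.09 normalised RPKM in Ter119+ cells. CFU-E was 241-fold below BFU-E (interval 195 to 303), the largest difference of the set, and 83 reads in CFU-E were set against 15111 in BFU-E.

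Of the branched-actin genes, Arpc1b (record NM_023142), a subunit of the Arp2/3 complex, stood at 147, 21.9 and 7.46 normalised RPKM in BFU-E, CFU-E and Ter119+ cells. Was (record NM_009515), which encodes the blood cell activator WASP, stood at 51.0, 18.7 and 4.24. Rac2 (record NM_009008), the Rac GTPase of blood cells, stood at 84.0, 50.8 and 32.5. These 3 genes went down at each of the stages in turn. In CFU-E, Arpc1b was 6.69-fold lower (6.35 to 7.04) and Was 2.73-fold lower (2.53 to 2.94) than in BFU-E. Rac2 was 1.66-fold lower (1.59 to 1.73) and was the member that missed the 2-fold rule. The Arpc1b value needs care, because 51.4% of the 32-base words of its transcript also occur in other genes or pseudogenes and 30.0% of its exon bases overlap Pdap1 on the opposite strand; whether the counting used strand is not given in the sources used here.

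Of the genes for unbranched filaments, Fmnl1 (record NM_001077698), a formin of blood cells, stood at 55.2, 0.859 and 0.721 normalised RPKM in BFU-E, CFU-E and Ter119+ cells. Evl (record NM_007965), an Ena/VASP protein, stood at 11.9, 2.22 and 0.578. Lcp1 (record NM_008879), the plastin of leukocytes, stood at 17.7, 1.15 and 6.94. Fmnl1 was thus near 1 in both later stages, Evl went down in steps, and Lcp1 was lowest in CFU-E. CFU-E lay 64.2-fold below BFU-E for Fmnl1 (51.8 to 80.8), 5.38-fold for Evl (4.41 to 6.63) and 15.4-fold for Lcp1 (12.7 to 18.9). Shared words made up 23.5% of the Lcp1 transcript, with pseudogenes and a lincRNA, and 11.8% of that of Evl, with its overlapping neighbour Degs2.

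Of the genes for filament turnover, Coro1a (record NM_009898), the coronin of leukocytes, stood at 88.6, 1.28 and 12.3 normalised RPKM in BFU-E, CFU-E and Ter119+ cells. Gmfg (record NM_001039192), the glia maturation factor of blood cells, stood at 20.3, 0.314 and 0.138. Cnn2 (record NM_007725), a calponin found outside smooth muscle, stood at 19.5, 0.867 and 3.67. Coro1a and Cnn2 were lowest in CFU-E, and Gmfg was near the limit of detection after BFU-E, with 5 reads in CFU-E and 1 in Ter119+ cells against 250 in BFU-E. CFU-E lay 69.1-fold below BFU-E for Coro1a (52.7 to 91.5), 64.5-fold for Gmfg (28.0 to 206) and 22.5-fold for Cnn2 (17.1 to 30.0). A processed pseudogene shares 51.8% of the words of Gmfg.

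**Figure D1:**
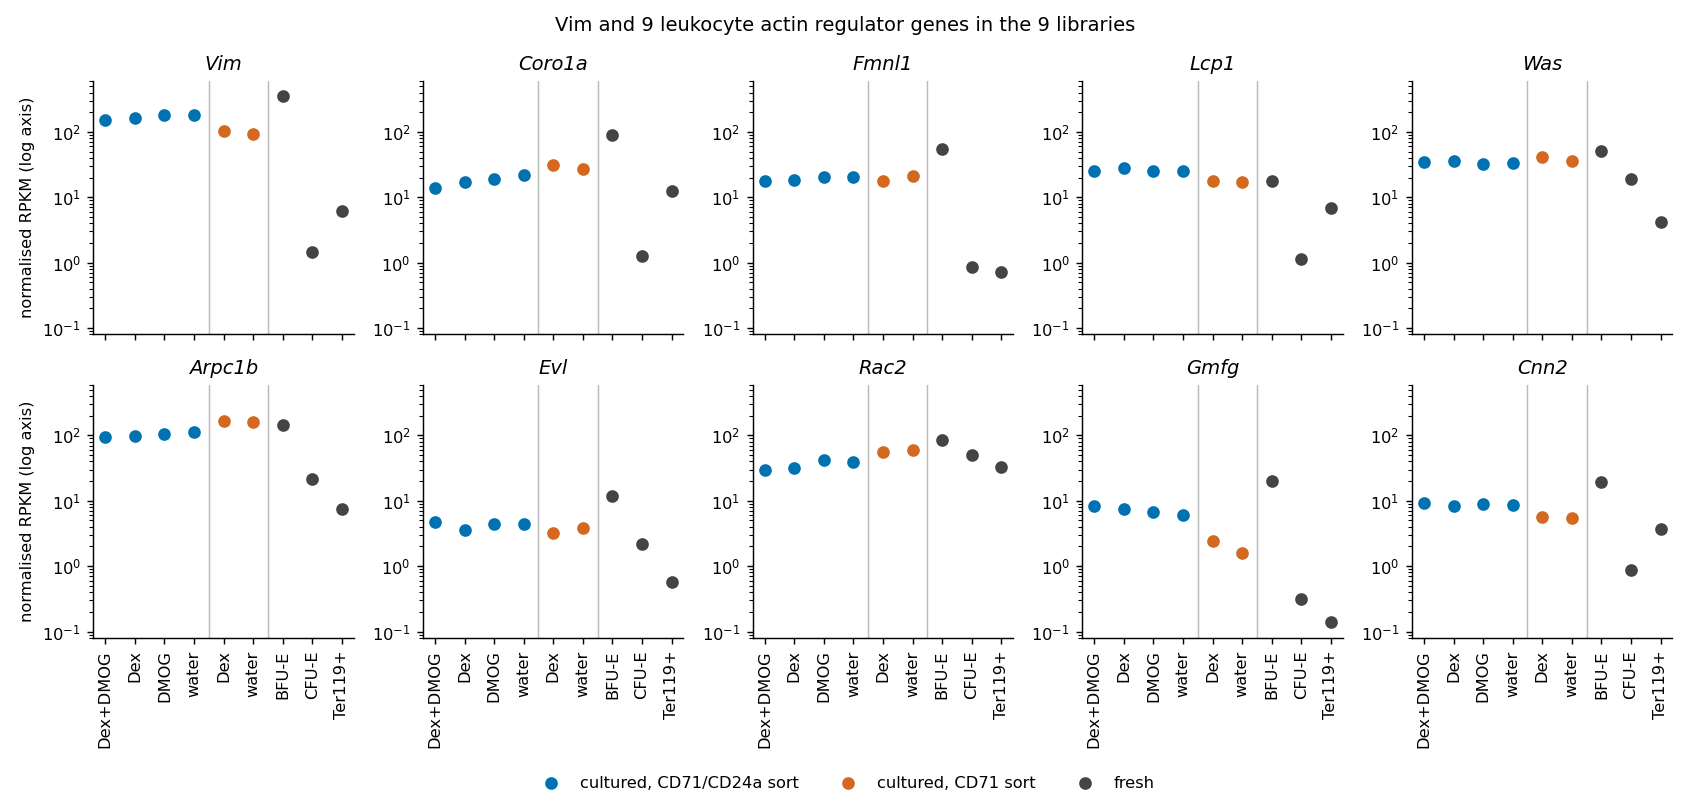
Normalised RPKM (log axis) of the 10 genes in each of the 9 libraries, 1 point a library: cultured BFU-E of the CD71/CD24a sort in blue, cultured BFU-E of the CD71 sort in orange and fresh populations in black. Fresh BFU-E held the highest of the 9 values for 8 of the 10 genes, and 9 genes had their lowest value in CFU-E (4) or in Ter119+ cells (5). Rac2 was lowest in the CD71/CD24a sort library with Dex and DMOG. In RPKM as deposited it was lowest in Ter119+ cells, at 13.6 against 34.4 in that library. The genes were picked with these levels known and the same shares of all genes were not counted, so these counts are a description only.

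Promoters of the genes were searched for short motifs, as a description of the members. The RefSeq table (GRCm38.p6) held 13 windows, each the 250 bases before a start site, for 9 of the 10 members; Rac2 was not matched. Both strands were searched. The ETS-type motif GAGGAA was in 4 of the 13 windows, of Evl, Fmnl1, Gmfg and Vim, against 23.3% of all 32851 windows. The ETS core CGGAAG, whose GGAA cannot be that of a GAGGAA match, was in 3, of Arpc1b, Cnn2 and Gmfg, against 13.6%. The CArG box (CC, then 6 letters A or T, then GG), the motif of serum response factor, was in 1 window, that of Cnn2, against 1.47%. The E-box CAGGTG was in 1 window (17.2% of all) and the glucocorticoid receptor motif AGAACA in 2, of Lcp1 and Was (16.1%). The GATA-type motif AGATAA (9.99% of all) and the AP-1 motif TGACTCA (4.46%) had 0 matches in these windows. A match describes letters and does not show binding. Of the windows, 3 are printed: that of Vim, the gene with the largest difference, that of Fmnl1, the formin, and that of Cnn2, which holds the CArG box. Capitals mark the matches on either strand, so TTCCTC is GAGGAA read on the other strand.
Vim promoter, chr2:13574061-13574310, plus strand: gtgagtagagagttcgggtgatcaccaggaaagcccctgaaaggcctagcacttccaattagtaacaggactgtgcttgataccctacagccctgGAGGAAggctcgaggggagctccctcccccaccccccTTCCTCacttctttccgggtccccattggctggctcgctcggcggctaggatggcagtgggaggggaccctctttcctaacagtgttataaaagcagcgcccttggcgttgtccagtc
Fmnl1 promoter, chr11:103170888-103171137, plus strand: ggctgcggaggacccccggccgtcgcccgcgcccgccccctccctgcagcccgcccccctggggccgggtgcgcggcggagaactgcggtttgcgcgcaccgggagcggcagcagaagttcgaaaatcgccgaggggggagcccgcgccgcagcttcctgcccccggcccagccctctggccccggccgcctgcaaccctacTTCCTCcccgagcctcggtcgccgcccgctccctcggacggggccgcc
Cnn2 promoter, chr10:79988350-79988599, plus strand: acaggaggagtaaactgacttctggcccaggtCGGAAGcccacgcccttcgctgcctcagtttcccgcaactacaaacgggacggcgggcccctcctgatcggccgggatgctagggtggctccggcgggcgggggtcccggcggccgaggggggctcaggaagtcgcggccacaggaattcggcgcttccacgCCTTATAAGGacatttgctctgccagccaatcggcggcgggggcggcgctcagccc
In the Vim window the 2 matches begin 155 and 118 bases before the start, in the Fmnl1 window the match begins 48 bases before it, and in the Cnn2 window CGGAAG begins 218 and the CArG box 56 bases before it.

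Relatives of the genes were set beside them, without a test, since the members were chosen with this difference known. Of 45 relatives in 10 families, 29 were at 1 or more normalised RPKM in either library, and 8 of these were lower in CFU-E and 3 higher by the 2-fold rule. Among all genes 12.3% were lower and 3.32% higher. Arpc1a, the other form of the Arpc1b subunit, stood at 64.9 normalised RPKM in CFU-E and 61.6 in BFU-E, so that it lay below Arpc1b in BFU-E and above it in CFU-E. Rhog stood at 110 in CFU-E and 106 in BFU-E. Gmfb, the widely expressed glia maturation factor, stood at 11.9 in CFU-E and 9.51 in BFU-E. These 3 lay within 0.30 log2 of BFU-E in CFU-E, while their relatives Arpc1b, Rac2 and Gmfg had log2 differences of -2.69, -0.72 and -4.02.

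Other families held a relative that was somewhat lower. Coro1c stood at 54.4 normalised RPKM in CFU-E and 67.7 in BFU-E (log2 difference -0.31), Vasp at 30.9 and 40.3 (-0.38), and Wasf2, of the WAVE branch, at 31.4 and 49.8 (-0.65). Lmnb1, a lamin of the nuclear envelope and thus of the intermediate filament family, stood at 153 and 191 (-0.33). Of the best expressed relatives of each family, those past the rule were the formin Diaph1, at 17.7 in CFU-E and 49.1 in BFU-E (-1.43), and Tagln2, a calponin relative, at 100 and 297 (-1.56), which were lower in CFU-E as Fmnl1 and Cnn2 were. Pls3, the best expressed relative of Lcp1, was below the minimum, at 0.819 in CFU-E and 0.605 in BFU-E. Rac1, named here after its values were seen, stood at 35.0 in CFU-E and 70.8 in BFU-E which is just short of the 2-fold rule and a larger difference than that of Rac2.

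**Figure D2:**
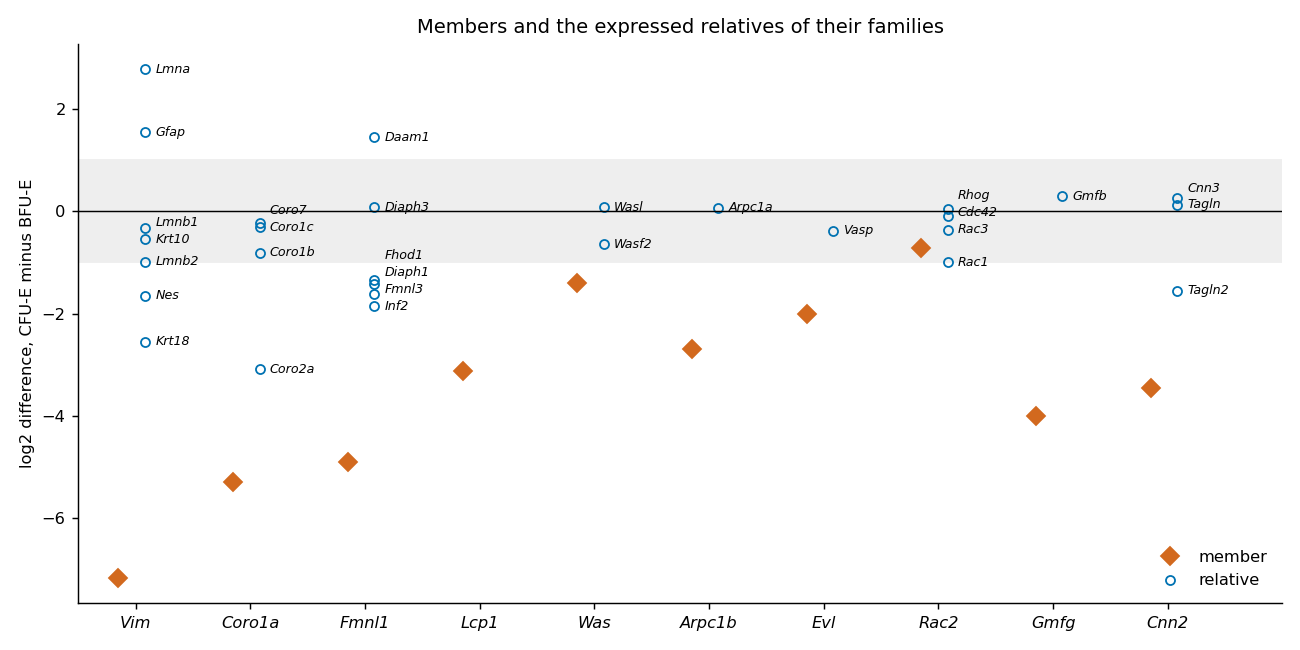
Log2 difference, CFU-E minus BFU-E, of each member (orange diamond) and of its expressed relatives (blue circles, named); the grey band marks differences under 2-fold, and each stage is 1 library. Every member except Rac2 lies under all of its plotted relatives, and Lcp1 has no plotted relative.

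Pathway lists set the members among other actin genes, without the members in the counts. The lists were chosen with earlier results of these data known, so their counts are a description. Among all genes 12.3% were lower in CFU-E and 3.32% higher. Of 8 further subunits of the Arp2/3 complex tested, 0 were lower or higher by 2-fold in CFU-E, and their median log2 difference was -0.15. Of 14 further WASP and WAVE genes, 6 were lower and 0 higher, among them Hcls1, an activator of Arp2/3 in blood cells, at 3.79 normalised RPKM in CFU-E and 40.3 in BFU-E, and Nckap1l, the WAVE subunit of blood cells, at 4.29 and 35.7.

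Of 24 further turnover and capping genes 8 were lower and 0 higher, and of 10 formins, Ena/VASP proteins and bundlers 6 were lower and 1 higher, the formin Daam1, at 16.2 normalised RPKM in CFU-E and 5.27 in BFU-E. Of 23 genes for actin, calponins, myosin and membrane linkers 8 were lower and 0 higher. Myo1g, a myosin of blood cells, stood at 0.304 in CFU-E and 27.9 in BFU-E, and Zyx, of adhesion sites, at 6.90 and 93.8. Of 7 further intermediate filament genes 2 were lower and 2 higher; Krt18 stood at 0.279 in CFU-E and 6.52 in BFU-E, and Lmna, the A-type lamin, at 129 and 17.9. The red cell actin skeleton had more genes higher than lower, with 7 of 16 genes higher and 3 lower. Its band 4.2 gene Epb42 stood at 23.1 in CFU-E and 1.63 in BFU-E, its adducin Add2 at 156 and 31.7, and Sptbn1, the non-erythroid spectrin, at 2.53 and 15.1.

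The step to Ter119+ cells split the members. Against CFU-E, 4 were at least 2-fold higher in Ter119+ cells and 3 at least 2-fold lower, of 8 that reached the minimum; 22.6% of all 9530 genes were higher and 28.8% lower. Coro1a was 9.58-fold higher (6.96 to 13.3), Lcp1 6.06-fold (4.8 to 7.73), Cnn2 4.23-fold (2.91 to 6.16) and Vim 4.13-fold (3.04 to 5.59). Was was 4.41-fold lower (3.45 to 5.80), Evl 3.85-fold (1.95 to 8.55) and Arpc1b 2.94-fold (2.51 to 3.46). Rac2 was 1.56-fold lower (1.44 to 1.70). Fmnl1 and Gmfg were under the minimum in both libraries.

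The values depended on the scaling, which divided the Ter119+ library by a factor of 0.419, whereas the factors of the other 8 libraries were 1.02 to 1.18. With RPKM as deposited, 1 member was 2-fold higher, Coro1a with a log2 difference of 1.36, and Lcp1 (0.80), Vim (0.45) and Cnn2 (0.39) missed the rule. The lower values were larger in size without scaling: 4 members were lower, Was (-2.94), Arpc1b (-2.59), Rac2 (-1.94, against -0.63 with scaling) and Evl (-1.46); of all genes 8.46% were higher and 60.3% lower. Genes higher in Ter119+ cells made up 44.0% of all called genes with scaling and 12.3% without, and the median log2 difference of all genes was -0.21 with and -1.30 without it. Against BFU-E, all 10 members were at least 2-fold lower in Ter119+ cells with and without scaling, where 35.8% and 62% of all genes were lower, and 0 were higher, where 21.2% of all genes were higher with scaling.

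Summed levels of markers of other blood cells were also higher in Ter119+ cells than in CFU-E. The summed level of 17 neutrophil and mast cell markers was 101 normalised RPKM in BFU-E, with 3 at 1 or more, 5.16 in CFU-E, with 2, and 214 in Ter119+ cells, with 11. Mpo, S100a9 and Prtn3 stood at 57.3, 49.1 and 29.2 in Ter119+ cells and at 2.09, 0.554 and 1.23 in CFU-E; the mast cell markers Mcpt4, Ms4a2 and Fcer1a were at 0 in both. The sum of 11 macrophage markers was 7.30 in BFU-E, 1.69 in CFU-E and 42.9 in Ter119+ cells, with Lyz2 at 15.8, C1qb at 10.1 and Timd4 and Cd163 at 0 in Ter119+ cells. The pan-leukocyte sum was 26.2 in Ter119+ cells and 9.66 in CFU-E, and the megakaryocyte sum 125 and 37.3, with Gp9 at 52.9 and 7.47 and Pf4 at 16.7 and 1.44. Not every marker of these lists was higher: the megakaryocyte marker Gp1ba stood at 1.95 and 3.76, and the pan-leukocyte marker Itgb2 at 1.47 and 2.74. In RPKM as deposited, the sums in Ter119+ cells and CFU-E were 89.8 and 5.60 for neutrophil and mast cell markers, 17.98 and 1.84 for macrophage markers, 52.4 and 40.4 for megakaryocyte markers and 10.99 and 10.48 for pan-leukocyte markers, so the last differed little without scaling. The part of these cells in the levels of the members was not tested.

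**Figure D3:**
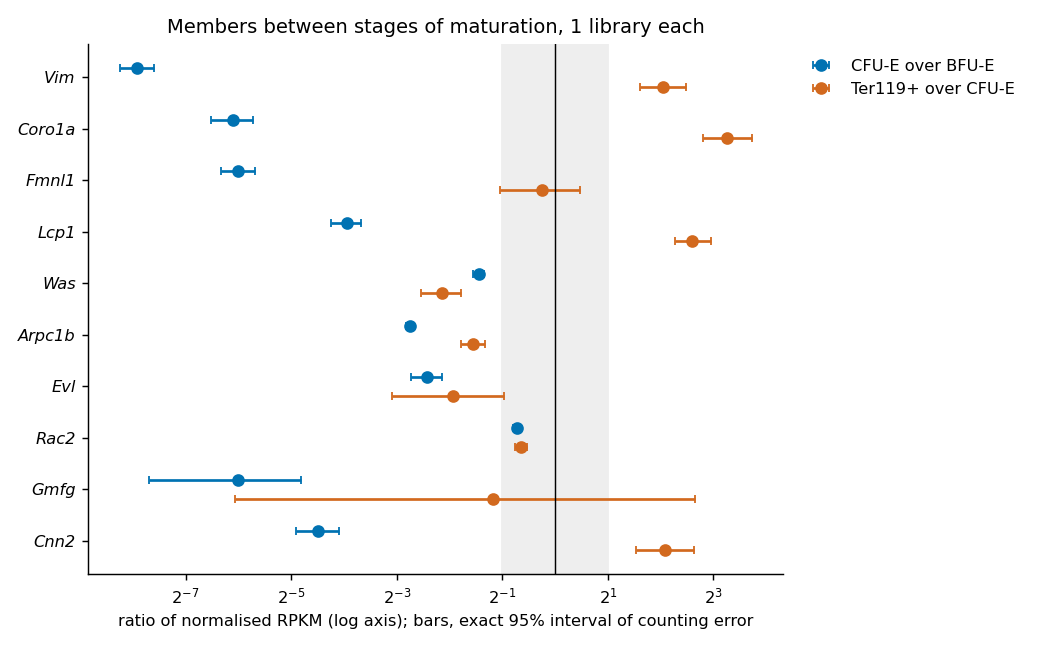
Ratios of normalised RPKM (log axis) of the 10 genes, CFU-E over BFU-E in blue and Ter119+ over CFU-E in orange, with exact 95% intervals of counting error; the grey band marks ratios under 2-fold and each stage is 1 library. Coro1a, Lcp1, Cnn2 and Vim lie right of the band in Ter119+ cells, of which only Coro1a was 2-fold higher without scaling.

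The red cell skeleton and other lists gave a background to this step. Of its 16 genes 11 were higher in Ter119+ cells than in CFU-E and 0 lower (9 and 4 without scaling). Among all genes 22.6% were higher and 28.8% lower (8.46% and 60.3% without scaling). Dmtn stood at 1552 normalised RPKM in Ter119+ cells and 24.6 in CFU-E, and Epb42 at 839 and 23.1. Among relatives of the members, Tagln2 stood at 8.27 and 100 and Cnn3 at 2.79 and 35.1, opposite in direction to Cnn2, and Gfap, an intermediate filament gene known from glia, stood at 116 and 2.80. The formin Diaph3 stood at 65.3 and 9.98, and Ssh1, a phosphatase that activates cofilin, at 57.9 and 7.46.

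After culture with water most members lay between fresh CFU-E and fresh BFU-E, as did most of all genes that were lower in CFU-E. In the CD71/CD24a sort 6 of 10 were at least 2-fold lower than in fresh BFU-E and 0 higher, where 12.9% of all genes were lower and 11.2% higher; without scaling it was 4 lower, without Rac2 and Cnn2, where 10.1% of all genes were. In the CD71 sort 6 of 10 were lower and 0 higher, where 9.06% of all genes were lower and 6.27% higher. Coro1a, Fmnl1, Evl, Gmfg and Cnn2 were lower in both sorts, Rac2 in the CD71/CD24a sort alone and Vim in the CD71 sort alone. For 7 of the 9 members that were lower in CFU-E, all 6 cultured libraries lay between fresh CFU-E and fresh BFU-E, as did those of 62.5% of all 1224 genes that were lower in CFU-E. The members were picked with the fresh levels known and that share is near theirs, so nothing is read from it about them. These comparisons share the fresh BFU-E library.

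Vim stood at 151 with Dex and DMOG, 163 with Dex, 178 with DMOG and 184 normalised RPKM with water in the CD71/CD24a sort, and at 102 with Dex and 93.5 with water in the CD71 sort, against 355 in fresh BFU-E. Every cultured value was far above the 1.47 of CFU-E, and the sorts did not overlap. The water cultures held 51.9% (CD71/CD24a sort) and 26.3% (CD71 sort) of the fresh BFU-E level, whereas CFU-E held 0.415%.

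Arpc1b stood at 96.1, 98.0, 106 and 113 normalised RPKM with Dex and DMOG, Dex, DMOG and water in the CD71/CD24a sort, and at 168 with Dex and 159 with water in the CD71 sort, against 147 in fresh BFU-E. Lcp1 stood, in the same order, at 24.8, 27.6, 24.9 and 24.9, and at 17.6 and 17.4, against 17.7. These genes were thus not lower by 2-fold in any culture, and the Lcp1 values of the CD71/CD24a sort were all above fresh BFU-E. In water, Lcp1 was at 1.41 times fresh BFU-E (1.31 to 1.51) in the CD71/CD24a sort and 0.985 times (0.901 to 1.08) in the CD71 sort, and Arpc1b at 0.769 times (0.746 to 0.793) and 1.08 times (1.05 to 1.12).

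Was was also retained, at 31.9 to 36.4 normalised RPKM in the CD71/CD24a sort and 36.2 and 41.1 in the CD71 sort, against 51.0 in fresh BFU-E. Rac2 stood at 29.7, 32.1, 41.4 and 39.6 with Dex and DMOG, Dex, DMOG and water in the CD71/CD24a sort and at 55.0 with Dex and 59.7 with water in the CD71 sort, against 84.0. The cultures of the CD71/CD24a sort thus held less Rac2 than fresh CFU-E (50.8), which none of the other members showed.

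Coro1a stood at 14.1, 17.1, 19.3 and 22.0 normalised RPKM with Dex and DMOG, Dex, DMOG and water in the CD71/CD24a sort, and at 31.3 with Dex and 27.1 with water in the CD71 sort, against 88.6 in fresh BFU-E. Gmfg stood, in the same order, at 8.28, 7.62, 6.75 and 6.15, and at 2.40 and 1.59, against 20.3. The pair ran in opposite directions between the sorts, with Coro1a lower and Gmfg higher in all 4 libraries of the CD71/CD24a sort than in both of the CD71 sort. Fmnl1 ranged over 17.7 to 20.7 in the CD71/CD24a sort and 17.7 to 21.3 in the CD71 sort, against 55.2 in fresh BFU-E, Evl over 3.62 to 4.78 and 3.20 to 3.84, against 11.9, and Cnn2 over 8.40 to 9.29 and 5.40 to 5.67, against 19.5. Fmnl1 and Evl overlapped between the sorts and Cnn2 did not.

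**Figure D4:**
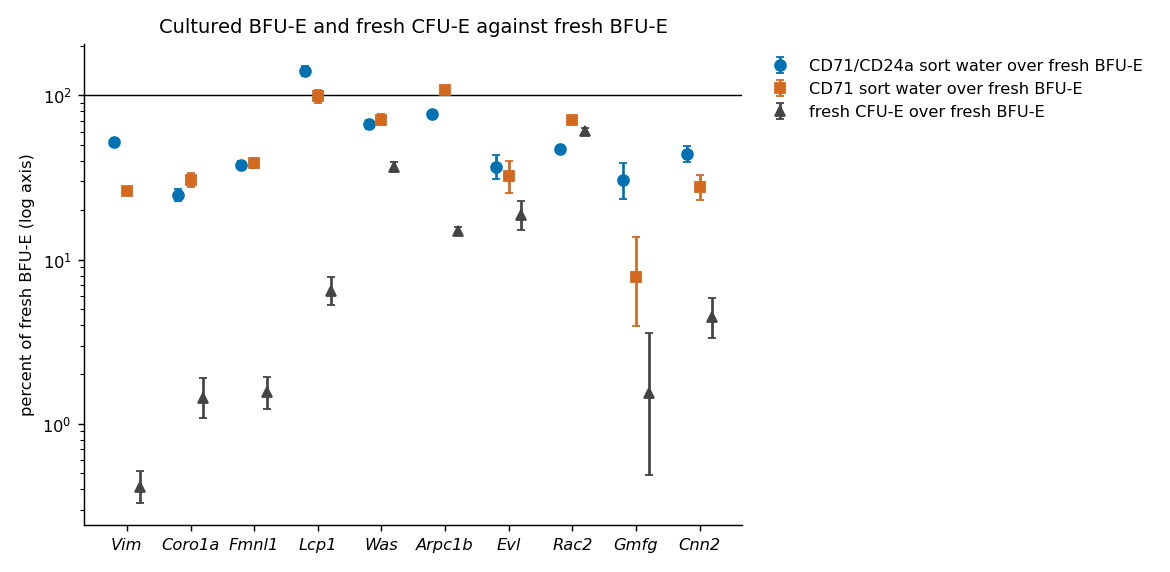
Level of each gene as a percent of fresh BFU-E (log axis) in water cultures of the CD71/CD24a sort (blue circles) and the CD71 sort (orange squares) and in fresh CFU-E (black triangles), with exact 95% intervals of counting error; 1 library each. Lcp1 and Arpc1b stay near the line at 100 in culture, and Rac2 in the CD71/CD24a sort lies below its CFU-E value.

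Between the sorts, 1 member passed the 2-fold rule. Gmfg was 3.87-fold higher (2.13 to 7.90) in the CD71/CD24a sort than in the CD71 sort with water and 3.17-fold higher (1.93 to 5.21) with Dex, where 1.44% and 3.67% of all genes were higher; 0 members were lower in either pair, where 3.07% and 4.6% of all genes were. With RPKM as deposited Vim passed as well in water, with a log2 difference of 1.17 in place of 0.97, where 3.67% of all genes were higher. Vim, Lcp1, Gmfg and Cnn2 had all 4 libraries of the CD71/CD24a sort above both of the CD71 sort, and Coro1a, Arpc1b and Rac2 had all 4 below. The share of all genes with such a separation was not counted, so nothing is read from it about the members. Each sort was 1 culture, so its arms are not replicates of the sort and no test was made. The sum of the neutrophil and mast cell markers was 5.66 to 6.61 normalised RPKM in the CD71/CD24a sort and 28.1 to 28.9 in the CD71 sort. Other marker sums differed too. In the same order, that of 10 red cell markers was 549 to 714 and 1122 to 1769. The megakaryocyte sum was 132 to 159 and 93.8 to 100, and that of 8 hepatocyte markers 10.9 to 13.7 and 2.88 to 5.39. The part of these cells in the differences was not tested.

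Dex was tested in a limma model with the culture pair as a block, over 3 pairs and 9535 genes. With Benjamini-Hochberg adjustment 133 genes rose and 60 fell, 2.02% of all, and 0 of the 10 members passed; 16.2% of genes and 3 members had an unadjusted p under 0.05. Gmfg was higher with Dex in 3 of 3 pairs (log2 difference 0.31, SE 0.081, limma adjusted p = 0.144). Rac2 was lower in 3 of 3 pairs (-0.29, SE 0.086, limma adjusted p = 0.181), as was Fmnl1 (-0.20, SE 0.069, limma adjusted p = 0.236). Vim was lower in 2 of 3 pairs (-0.10, SE 0.090, limma adjusted p = 0.613). The other 6 members had differences of -0.19 to 0.13. Without either library of the CD71 sort pair, which leaves 2 pairs, Coro1a (-0.39) and Rac2 (-0.38) passed, with limma adjusted p of 0.0047 and 0.0050 without the Dex library and 0.0030 and 0.0032 without the water library. Both of these runs called several times as many of all genes as the full fit, with the counts given at the end under dependence on the processing. They rest on pairs of the CD71/CD24a sort alone, so nothing particular to the members is read from these calls.

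A few genes of the cytoskeleton lists outside the set rose with Dex. Enah, the Ena/VASP relative of Evl, stood at 8.69 and 1.27 normalised RPKM with Dex and without it in the DMOG pair, at 8.65 and 1.77 in the CD71/CD24a sort pair, and at 3.43 and 0.566 in the CD71 sort pair. Every Dex value was above every value without Dex, and the log2 difference was 1.80 (SE 0.13, limma adjusted p = 0.0021, higher in 3 of 3 pairs). Its adjusted p was 0.0831 with no minimum level and 0.504 without the block. Arhgef3, a guanine nucleotide exchange factor, stood at 18.1 and 2.08, 18.6 and 2.14, and 15.5 and 2.15 with Dex and without it in the same pairs. Its groups did not overlap either, and the log2 difference was 2.56 (SE 0.087, limma adjusted p = 0.00053). Of the red cell skeleton, Mpp1 (0.69, SE 0.074, limma adjusted p = 0.0095) and Sptb, a red cell spectrin (0.46, SE 0.073, limma adjusted p = 0.036), rose in 3 of 3 pairs. Both lost the call with no minimum level (limma adjusted p 0.083 and 0.146) and without the block (0.524 and 0.99997). Without the CD71/CD24a sort Dex library it was 0.053 for Mpp1 and 0.115 for Sptb, and Sptb also lost it without any other library of that sort (0.069 to 0.108). In all, Mpp1 passed in 11 of 14 alternatives and Sptb in 7. Enah was 1 of 10 formin, Ena/VASP and bundler genes tested without the members, Mpp1 and Sptb were 2 of 16 red cell skeleton genes, and 0 genes passed in the lists of Arp2/3, WASP and WAVE, turnover and capping, actin and myosin, and intermediate filament genes.

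No member passed the test for DMOG. Over 2 pairs, 2 of 9535 genes rose and 0 fell, 0.021% of all, and 3.64% had an unadjusted p under 0.05. The log2 differences of the members ran from -0.22 (Coro1a, SE 0.16) to 0.16 (Evl, SE 0.12), 0 members had an unadjusted p under 0.05, and the limma adjusted p was 0.999 for each. No gene passed the test of whether the Dex difference differed with DMOG (limma; 2.88% of genes and 0 members had an unadjusted p under 0.05), and member differences ran from -0.36 to 0.32.

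Coro1a was the member past the threshold of the test of whether the Dex difference differed between the sorts, in which the CD71 sort has 1 pair and no replicate. Coro1a stood at 14.1 normalised RPKM with Dex and DMOG against 19.3 with DMOG, and at 17.1 with Dex against 22.0 with water, in the CD71/CD24a sort, and at 31.3 with Dex against 27.1 with water in the CD71 sort. It was lower with Dex in both pairs of the CD71/CD24a sort and higher in the pair of the CD71 sort. The difference of differences was -0.59 (SE 0.12, limma adjusted p = 0.0202), and 6.03% of all genes passed this test. The other 9 members did not pass, Vim coming next (-0.33, limma adjusted p = 0.121). The model had 1 residual degree of freedom, so its spread comes from the 2 pairs of the CD71/CD24a sort and from the other genes, with the CD71 sort pair assumed to vary alike; a difference between the sorts is therefore not established for Coro1a.

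**Figure D5:**
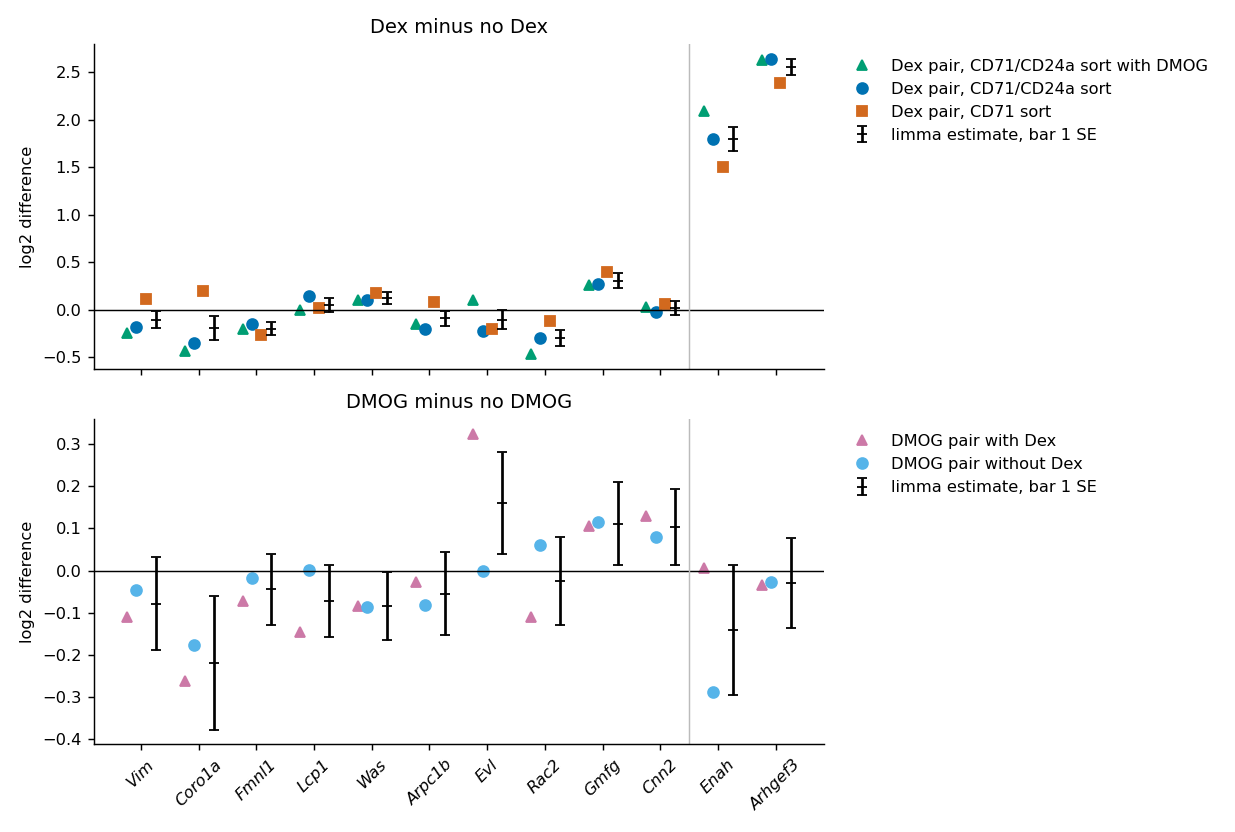
Log2 differences with Dex (upper panel) and with DMOG (lower panel) for the 10 genes and, right of the grey line, Enah and Arhgef3: each symbol is 1 pair of libraries, and the black mark with its bar is the limma estimate with 1 SE. Coro1a has both CD71/CD24a pairs under 0 and the CD71 pair above it, and Enah and Arhgef3 lie near or above 1.5 in every Dex pair.

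Over all 9 libraries, the 5 genes with profiles most like that of Vim were Muc13, Gata2, Lat, Laptm5 and Arhgdib, among 9687 genes at a mean of 1 or more normalised RPKM. Likeness was the mean absolute difference of centred log2 levels, which was 0.40 for Muc13, 0.50 for Gata2, 0.58 for Lat, 0.59 for Laptm5 and 0.61 for Arhgdib. Fmnl1, the member most like Vim, came close to these at 0.61, and Rac2 was the least like it at 1.76. Gata2, a transcription factor of early progenitors, stood at 82.9 in BFU-E, 1.26 in CFU-E and 0.210 normalised RPKM in Ter119+ cells, without the higher Ter119+ value of Vim. Closest to the mean profile of the 10 members were Celf2 (0.096), Limd2 (0.12), Dock2 (0.15), Ltbr (0.18) and Mllt6 (0.19), and the member closest to it was Cnn2 (0.27). The points share libraries and scaling, so these values are a description.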

How the data were processed

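Paired-end mRNA-seq libraries were made with an Illumina kit, per the labels' protocols. The deposited values are RPKM per RefSeq transcript record (23041 records a file), computed by the authors against mm9, per the submitters' processing notes; aligner, counting tool and strand use are not given in the sources used here. Symbols came from a RefSeq table of GRCm38 (22397 records) and from GENCODE (114), and 530 records had none. The record with the highest mean stood for each of the 2158 symbols with several records. An exact 1 in the CD71/CD24a files was read as 0.

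Each library was divided by its median ratio to the geometric mean over the 6888 genes that reached 1 RPKM in every library. Differences used a pseudocount of 1. Reads were recovered from low-value steps: 66.7% to 70.0% of low values were whole within 0.1 reads, against 20% by chance, with transcript lengths of another build. A count of 3 reads on 1 kb was worth 0.0569 to 0.253 RPKM. Intervals (Clopper-Pearson) show counting error alone, as reads copied by PCR do not count separate molecules.

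Fresh libraries and sorts, with 1 library a condition, were compared by a 2-fold rule among genes at 1 or more normalised RPKM in either library. Cultured libraries were tested with limma 3.58.1 (R 4.3.3), empirical Bayes with a trend, on genes at a mean of 1 or more, with Benjamini-Hochberg adjustment over all of them at 0.05. Dex had the culture pair as a block (2 residual and 4.31 prior degrees of freedom), because the treatment protocol divides the cells of a sort between arms; the interactions had 1 residual degree of freedom. On simulated data for the Dex comparison (9535 genes, 200 changed), 83.5% were recovered at a log2 change of 1 and 96.5% at 2, with false shares of 5.65% and 0.515%. The simulated noise was independent between genes and libraries, with the spreads of the genes shuffled among them. These shares therefore check the code and do not give the false share of the real calls. Nothing in the labels says that libraries came from separate animals, so p-values measure the spread between these samples, which may be technical.

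The members, gene lists, motifs and tests were chosen with earlier results of these data known. Named beside the members were the best expressed relative of each family, relatives and list genes past a test, the 2 largest differences in each direction of each list between fresh libraries, and the 5 genes most like Vim and most like the mean profile. Sequence sharing was the percent of 32-base words found in other genes of the annotation. Python 3.11.15, pandas 2.3.3, scipy 1.17.1 and matplotlib 3.10.9 were used. The alternatives were a pseudocount of 0.1, no scaling, no minimum level or a minimum mean of 5, exact 1 kept, summed records, no replicate block and leaving out each library. For Dex the DMOG pair was also left out. The result of 1 further gene list is not reported here.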

Additional observations from a re-analysis of the deposited data

Results flagged for a closer look

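The Dex difference of Coro1a, the coronin of leukocytes, passed the interaction test between the sorts: it was -0.59 on the log2 scale (CD71/CD24a sort minus CD71 sort, SE 0.12, limma adjusted p = 0.0202). The pairs gave -0.43 with DMOG and -0.35 without it in the CD71/CD24a sort, and 0.20 in the CD71 sort. The value was -0.62 with a pseudocount of 0.1 (adjusted p = 0.032) and -0.64 without scaling (adjusted p = 0.021). The CD71 sort was 1 pair without a replicate, whose spread was assumed to be that of the 2 other pairs, so the difference is not established; sort, culture and file processing cannot be told apart here, and of all genes 6.03% passed the same test.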

How the results depend on the processing

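In Ter119+ cells against CFU-E, 1 member was 2-fold higher without scaling, in place of 4, and in the CD71/CD24a sort against the CD71 sort with water it was 2, in place of 1. Dex called 193 genes as reported, 21 with no minimum level, 116 with a minimum mean of 5 and 3 with no replicate block. Leaving out 1 library gave 132 to 1253 genes (1148 without the CD71 sort Dex library and 1253 without its water library) and 0 to 2 members, Coro1a and Rac2. DMOG called 2 genes as reported, 0 with a pseudocount of 0.1, with no minimum or with no replicate block, 5 with summed records and 2 to 139 with 1 library left out (116 and 139 without the CD71 sort Dex and water libraries, 17 and 10 without the CD71/CD24a sort libraries with Dex and DMOG and with DMOG), and 0 members in each.

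Tested differences that missed the threshold changed sign under an alternative in 12 cases. For DMOG with no replicate block these were Vim (0.33), Lcp1 (0.21), Enah (0.35) and Arhgef3 (0.029). For DMOG with a CD71/CD24a sort library left out they were Arhgef3 without Dex (0.035) or DMOG (0.029), Arpc1b without water (0.029), Vim (0.028) and Rac2 (0.11) without Dex with DMOG, and Enah without DMOG (0.080). Over the libraries left out, the DMOG difference ran from -0.096 to 0.035 for Arhgef3, from -0.14 to 0.029 for Arpc1b, from -0.19 to 0.028 for Vim, from -0.16 to 0.11 for Rac2 and from -0.36 to 0.080 for Enah. For Dex by DMOG without scaling they were Fmnl1 (-0.036) and Cnn2 (-0.028). Between the sorts with water, which were not tested, Fmnl1 (0.15) and Was (0.10) also changed sign without scaling, both short of 2-fold. The DMOG fit with no replicate block also left out the sort, and both DMOG libraries came from the CD71/CD24a sort. Its DMOG differences therefore take in those between the sorts. Otherwise the cause of these changes was not tested.

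With no replicate block the Dex calls of Enah, Mpp1 and Sptb were lost, that of Arhgef3 was not, and 0 members passed with or without it. Leaving out libraries was not run for the interactions, and protein lengths and identities were not analysed here. Depth limits Gmfg most, with 1 to 21 reads in the CFU-E, Ter119+ and CD71 sort libraries.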
